A study of Drosophila melanogaster with 48 samples.

Results

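The regions described here lie at 7 Drosophila genes of cuticle tanning and epidermal wound repair: Ddc, ple, Pu, ebony (e), yellow (y), black (b) and Cad96Ca, which is also called stit. They were taken as a list of genes, chosen with earlier results of these data known. A region was assigned to a gene if a summit lay in the gene body or within 5 kb of it. The 7 genes are part of 13946 protein-coding genes, over which the same measures were taken. The farthest summit counted lay 4890 bp from an end of Pu, and the nearest summit left out lay 5069 bp from black.

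The data are 10 lists of open chromatin regions in dm6 coordinates, from ATAC-seq, an assay that maps accessible DNA by the insertions of a transposase. The 48 libraries, 2 per group, come from S2 cells, a Drosophila line that resembles blood cells. The cells were harvested 48 h after CuSO4 was added, which induces a transgene in the lines named for a factor. S2-WT labels name no factor, and the full-length titrations include libraries at 0 uM, without added CuSO4. The main Grh list joins S2-Grh and S2-WT cells, both at 100 uM CuSO4, and the Grh titration list joins S2-Grh cells at 0, 25, 100 and 400 uM. The Grh DBD list joins cells with the DNA-binding domain alone (S2-Grh-DBD) and S2-WT cells, both at 20 uM. Lists of other factors join S2-Zld and S2-WT cells at 1000 uM, S2-Zld-DBD and S2-WT cells at 100 uM, and S2-Twi and S2-WT cells at 40 uM. Titration lists of other factors join S2-Zld cells at 0, 500, 1000 and 1500 uM and S2-HA-Twi cells at 0, 10, 40 and 160 uM. There are also 2 DBD titration lists. The labels give S2-Grh-DBD cells at 80 uM and S2-Zld-DBD cells at 400 uM for that experiment, without saying which libraries enter those lists. Zelda (Zld) opens the early embryonic genome and Twist (Twi) directs mesoderm formation. The sources used here do not say whether a line is 1 clone. Of 8 hemocyte marker genes, 7 had a region in all 10 lists, and Sr-CI had one in 5; of all protein-coding genes, 81.3% had a region in all 10 lists.

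Each list pools its libraries, so no region has a value per replicate, and which libraries of a list gave rise to a region cannot be told apart. No test was possible, the depth is unknown, and every comparison below is a description of these lists. Fold enrichment is the authors' value over background at a summit, scaled within its list. The longest list, for Twi, had 71754 regions and the shortest, for the HA-Twi titration, had 25397. The smallest −log10 q in each was 1.30.

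Insect cuticle hardens and darkens with products of tyrosine. In Drosophila, ple encodes tyrosine hydroxylase, which makes DOPA, and Ddc encodes the decarboxylase that turns DOPA into dopamine. Pu encodes GTP cyclohydrolase, which starts the synthesis of the cofactor of tyrosine hydroxylase. The enzyme from black makes beta-alanine, ebony joins it to dopamine, and yellow is needed for black pigment. Cad96Ca is a receptor tyrosine kinase of the wounded epidermis. Grainyhead (Grh) is a transcription factor of epithelia that is known to act on Ddc and ple in the epidermis around wounds.

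Ddc, ebony, black and Cad96Ca, 4 of the 7 genes, held a region that ranked higher in the lists of full-length Grh. Every list of Zld, Twi or the Zld DBD ranked it at least 20 points lower. For all protein-coding genes the share was 3.31%. Each of these regions was also in some lists of the other factors: all 6 for ebony, 5 for Ddc, and 2 each for black and Cad96Ca. By presence alone, 0 of the 7 genes had a region in both the Grh and Grh titration lists that all 6 lists of the other factors lacked, against 10.1% of all genes. Rank here is the share of the 17045 loci held by all 10 lists whose fold enrichment was lower in the same list, so each list is measured on the same loci. A locus is a run of overlapping regions joined over the lists. A region was called higher in Grh by its rank in both full-length Grh lists. Each had to exceed the rank in each of the 6 lists of the other factors by at least 20 points. In those 6 lists an absent region had rank 0. The gap was 68.8 points at Ddc, 35.9 at ebony, 27.2 at Cad96Ca and 23.6 at black. The regions at Cad96Ca and black thus stood closest to the limit. The rank measure, the ratios to a neighbouring region and the comparison of the strongest regions were chosen after the values were seen. The 7 genes were also listed with earlier results of these data known. The contrast with the share over all genes is thus a description and no independent support.

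**Figure D1:**
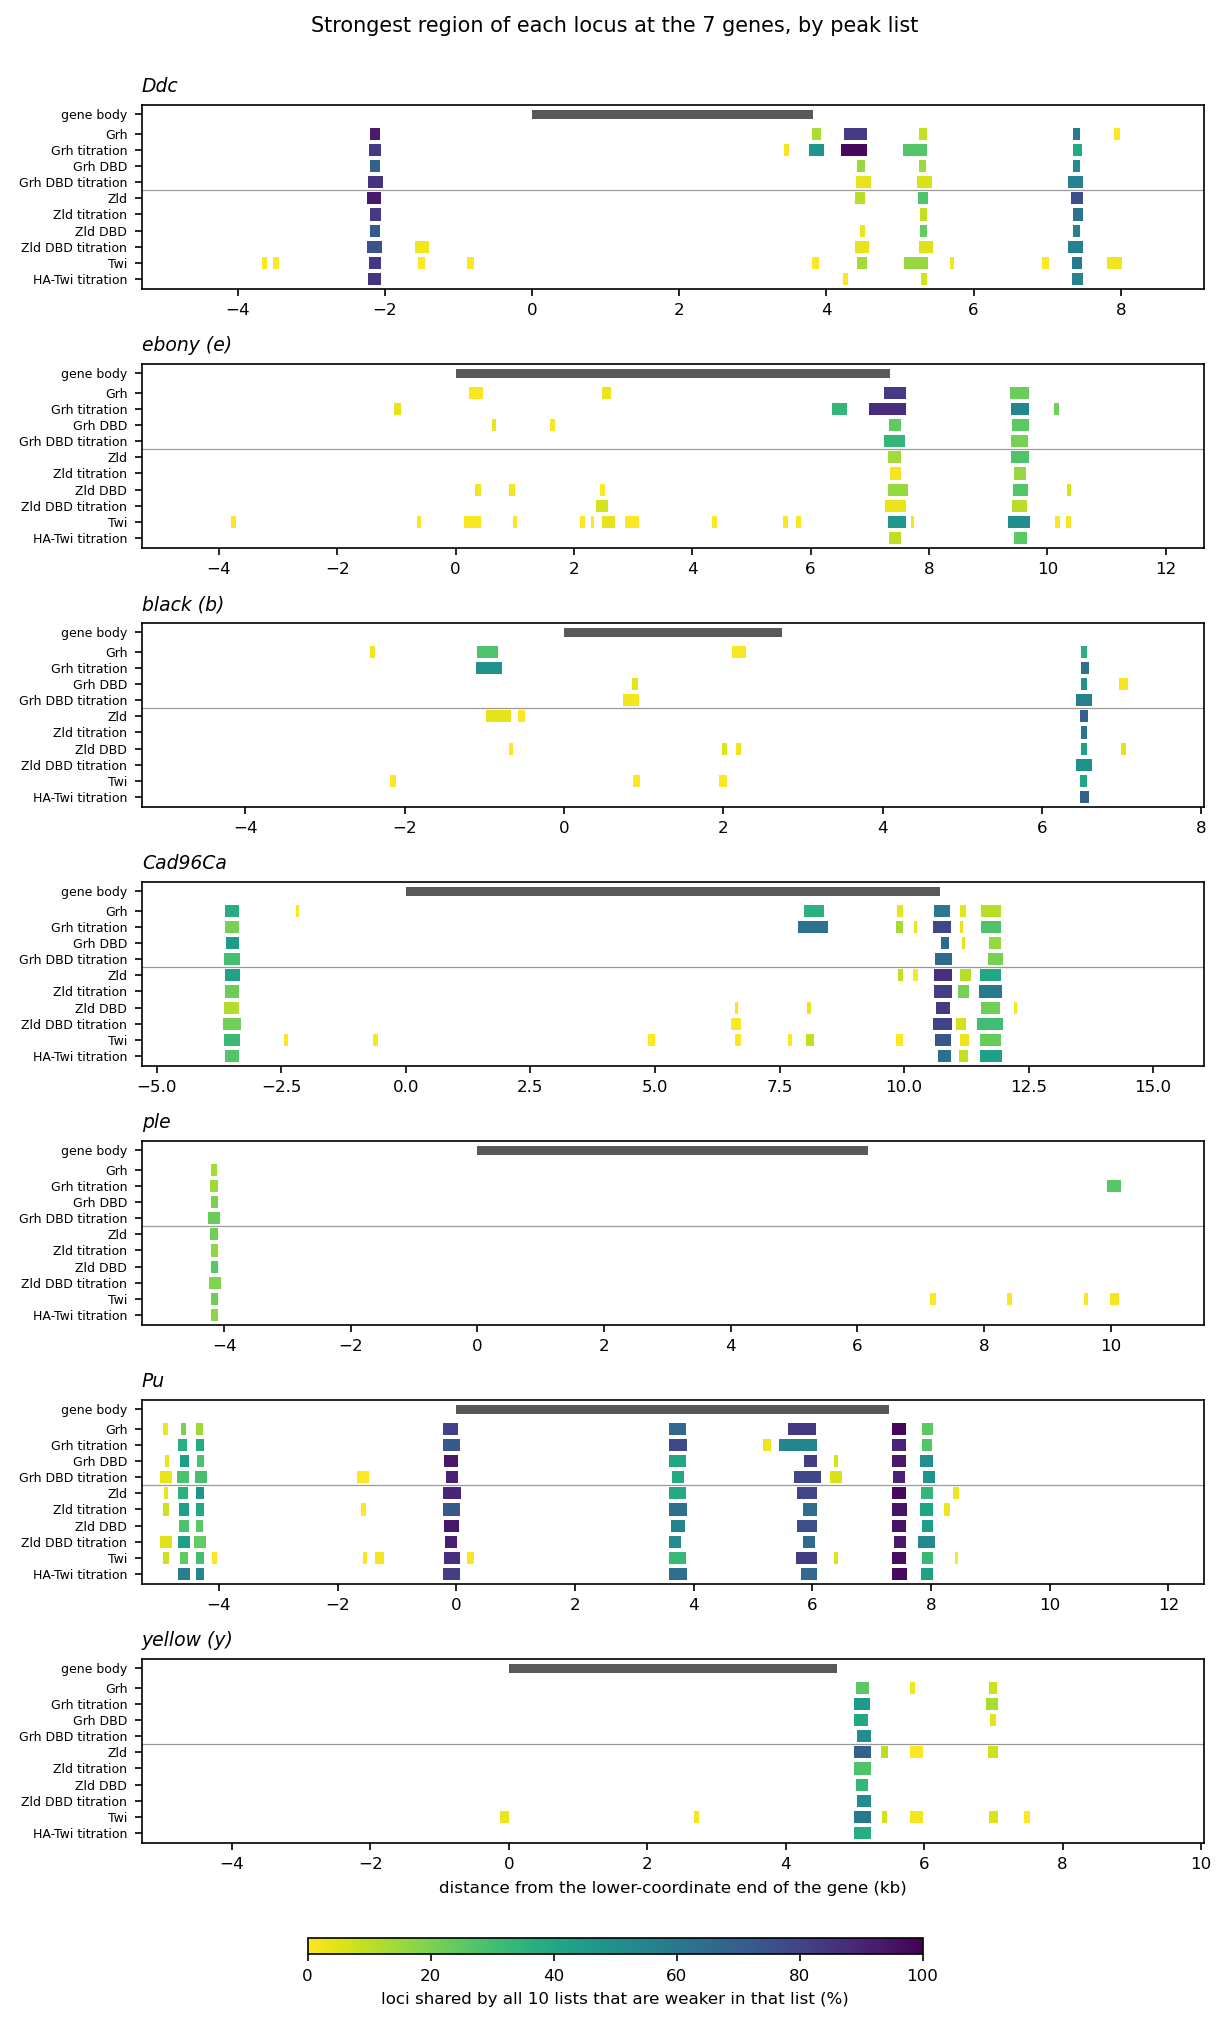
The strongest region of each locus at the 7 genes is drawn in each of the 10 lists, with the distance from the lower-coordinate end of the gene in kb on the x axis and the lists down the y axis, the 4 Grh lists above the line. Grey bars are gene bodies, and colour is the share of loci shared by all lists that are weaker in that list. Dark blocks in the top 2 rows mark the regions at Ddc and ebony. The blocks below them are pale at Ddc and pale to intermediate at ebony, up to 46.9% in the Twi list.

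Ddc (2L:19116483-19120306) had the region with the widest gap. It lay 375 bp beyond the higher-coordinate end of the gene, between Ddc and Phb1, and spanned 2L:19120681-19121084 over all lists. Its fold enrichment was 27.1 in the Grh titration list and 8.92 in the Grh list. In the domain lists it was 2.85 (Grh DBD) and 2.15 (Grh DBD titration). In lists of the other factors it was 3.38 for Zld, 1.93 for the Zld DBD, 2.10 for the Zld DBD titration, 2.66 for Twi and 1.81 for the HA-Twi titration, and the Zld titration list had no region there. Both full-length Grh lists thus stood above every other list in rank, at 97.8% and 82.8% of shared loci weaker, against at most 14.0% in a list of another factor. The Grh DBD lists stood at 16.0% and 3.61%. The region was also broader in the Grh titration and Grh lists, at 353 and 305 bp, than in the Zld (136 bp) and Twi (129 bp) lists, and the HA-Twi titration region of 69 bp lay at its lower edge.

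A smaller region of Ddc lay across the same end of the gene, at 2L:19120242-19120443. It had a fold enrichment of 7.13 in the Grh titration list, 2.71 in the Grh list and 1.36 in the Twi list, with a −log10 q of 93.4, 10.7 and 1.78. The 7 remaining lists had no region there. Of the other full-length lists, then, the Twi list alone held it, close to that list's limit.

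At Ddc the loci held by all 10 lists lay at neighbouring genes. The strongest by mean fold enrichment was at the lower end of CG10561 (2L:19114240-19114453), with fold enrichments of 11.9 in the Grh list, 14.5 in the Grh titration list and 17.7 in the Zld list. The Ddc region was 1.87 times as strong as this neighbour in the Grh titration list and 0.748 times in the Grh list. In the lists of the other factors the ratio ran from 0.101 (HA-Twi titration) to 0.280 (Twi), and the Grh DBD lists gave 0.395 and 0.188. Within the Ddc window the strongest region was thus the one beyond the gene in the Grh titration list, and the CG10561 one in the other 9 lists.

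At ebony (3R:21229839-21237177), a region across the higher-coordinate end of the gene was held by all 10 lists, over 3R:21236821-21237487. Its fold enrichment was 16.5 in the Grh titration list, 8.92 in the Grh list, 3.32 in the Grh DBD list and 4.01 in the Grh DBD titration list. In the others it was 3.73 for Zld, 2.01 for the Zld titration, 2.68 for the Zld DBD, 2.10 for the Zld DBD titration, 4.66 for Twi and 3.32 for the HA-Twi titration. The ranks were 87.4% and 82.8% in the full-length Grh lists and 24.3% and 33.9% in the domain lists, against at most 46.9% (Twi) in the 6 lists of the other factors. The region was 631 bp wide in the Grh titration list and 370 bp in the Grh list. In the lists of the other factors, the Zld DBD titration left out, it was between 197 and 343 bp. The Zld DBD titration region, at 358 bp, joins rows of a fixed 200 bp, so its width is not comparable.

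A second ebony region held by all lists, 2002 bp beyond that end (3R:21239179-21239540), served as the neighbour. The region at the gene end was 2.71 times as strong as it in the Grh list, 2.06 times in the Grh titration list and 1.26 times in the Grh DBD titration list. It was 0.983 times as strong in the Grh DBD list and between 0.543 (Zld titration) and 0.939 (Twi) times in the lists of the other factors. The order of the 2 ebony regions therefore differed between the full-length Grh lists and all lists of other factors. A further region inside ebony, at 3R:21236202-21236454, was in the Grh titration list alone, with a fold enrichment of 5.55 and a −log10 q of 73.1. The main Grh list lacked it.

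At black (2L:13821248-13823979), a region 636 bp below the lower-coordinate end spanned 2L:13820147-13820612, between Sos and black. Its fold enrichment was 7.36 in the Grh titration list and 3.54 in the Grh list, against 2.67 in the Zld list and 1.69 in the Zld DBD list. The other 6 lists, both Grh DBD lists among them, had no region there. Its ranks were 49.2% and 27.8% in the full-length Grh lists and at most 4.22% in a list of another factor, so it was an intermediate region in the Grh lists. The Zld DBD region of 59 bp did not overlap the Grh ones, to which the Zld region joins it. At the end of PolG1, 3697 bp beyond black, all 10 lists held a region (2L:13827676-13827879), which was the strongest of the window in each.

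At Cad96Ca (3R:25197571-25208283), a region inside the gene, which is also inside the overlapping gene CG13654, spanned 3R:25205400-25206039. It had a fold enrichment of 9.40 in the Grh titration list and 4.03 in the Grh list, against 2.36 in the Twi list and 1.93 in the Zld DBD list, and no other list held it. The ranks were 62.3% and 36.0% in the full-length Grh lists and at most 8.77% (Twi) in a list of another factor. It was 594 and 388 bp wide in the Grh titration and Grh lists. The strongest region of the window lay across the higher-coordinate end of Cad96Ca (3R:25208147-25208530) in all 10 lists, with fold enrichments of 5.72 to 13.2 in the 4 Grh lists and 7.51 to 14.2 in the 6 others. Relative to that neighbour, the inner region stood at 0.704 and 0.713 in the Grh and Grh titration lists, against 0.314 in the Twi and 0.206 in the Zld DBD list.

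**Figure D2:**
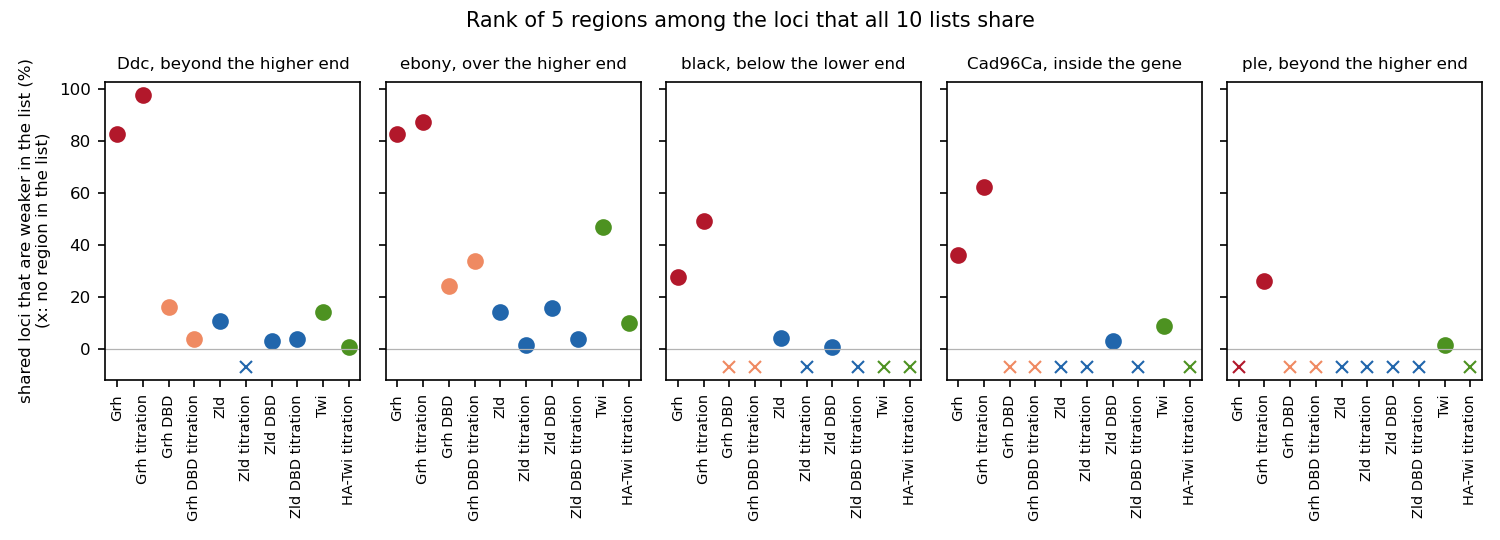
The rank of 5 regions (share of shared loci that are weaker in the same list, in percent, y axis) is shown for the 10 lists (x axis), with full-length Grh lists in red, Grh DBD lists in orange, Zld lists in blue and Twi lists in green; a cross marks a list with no region. The Ddc region stands at 97.8% and 82.8% in the full-length Grh lists and at most 14.0% in lists of other factors.

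The remaining 3 genes had no region of this kind. At ple (3L:6713356-6719525) the gene body held no region in any list. A region 3781 bp beyond the higher-coordinate end, at 3L:6723306-6723521, had a fold enrichment of 4.73 and a rank of 25.9% in the Grh titration list, against 1.74 and 1.57% in the Twi list. The main Grh list and the other 7 lists had none. In the Grh titration list it was 1.31 times as strong as the only locus of the window held by all 10 lists, near CG8519, and in the Twi list 0.553 times. The CG8519 locus was weak in each list, with fold enrichments of 2.80 to 3.61 in the 4 Grh lists and 3.03 to 4.44 in the 6 others.

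Pu (2R:21175315-21182608) had the most loci held by all lists, 7 of 16. Its strongest region was the strongest of the 7 windows in each list except the Grh titration, where the Ddc region was. A region 43 bp beyond the higher-coordinate end, between Pu and tud (2R:21182651-21182908), had fold enrichments of 13.8 to 17.6 in the 4 Grh lists and 14.6 to 30.7 in the 6 others. Its rank was at least 89.3% in the Grh lists and at least 93.1% in the others, so it was among the strongest shared loci everywhere. A region across the lower-coordinate end (2R:21175093-21175388) and 2 inside the gene were also in all lists. The inner one at 2R:21178892-21179202 ranked at 65.8% and 77.8% in the Grh and Grh titration lists, against at most 64.2% in the other factors' lists, a gap of 1.66 points. The Grh DBD lists put it at 40.5% and 39.5%.

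At yellow (X:356509-361245), which lies inside the longer gene CG32816, a region 244 bp beyond the higher-coordinate end (X:361489-361744) was held by all lists. Its fold enrichments were 3.41 (Grh), 6.96 (Grh titration), 4.31 (Grh DBD) and 5.47 (Grh DBD titration), against 9.84 (Zld), 4.83 (Zld titration), 3.57 (Zld DBD), 5.24 (Zld DBD titration), 5.73 (Twi) and 6.77 (HA-Twi titration). The highest rank was that of the Zld list, at 69.0%, and the lowest that of the main Grh list, at 25.3%. The other 3 Grh lists, at 40.1% to 51.5%, lay within the range of the other factors' lists, which began at 28.0%. A region 2161 bp beyond the same end (X:363406-363575) was in 5 lists, at 3.39 in the Grh titration, 2.43 in the Grh and 2.10 in the Grh DBD list, against 3.02 in the Zld and 2.11 in the Twi list.

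**Figure D3:**
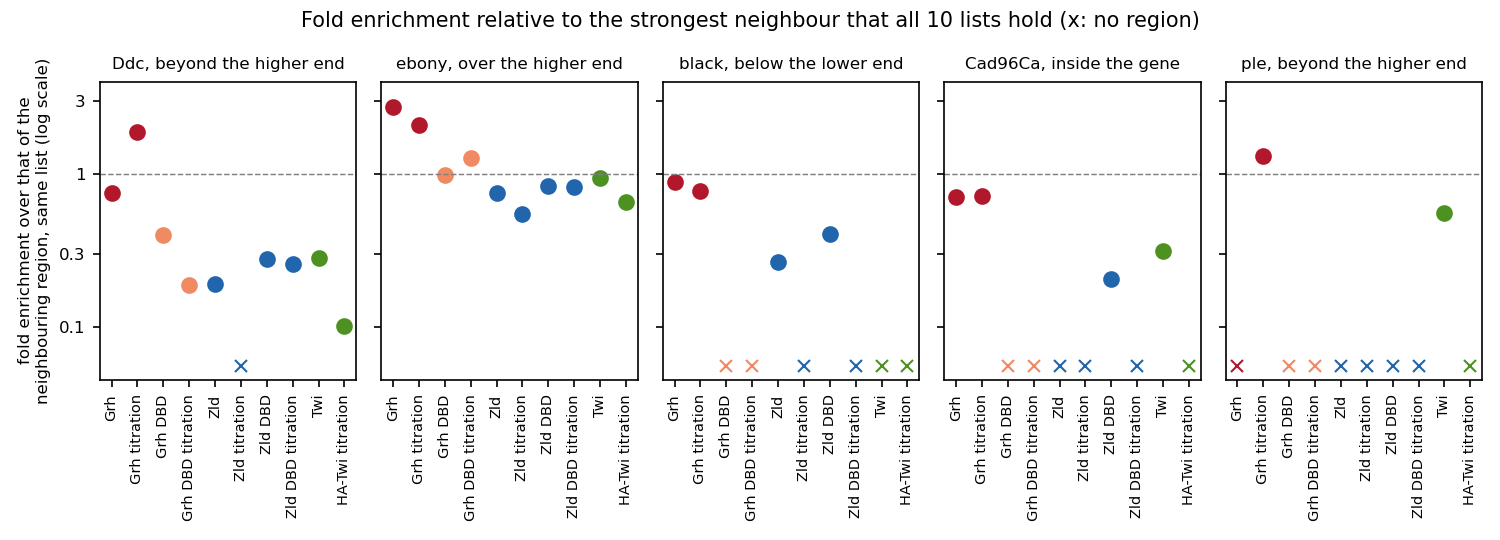
The fold enrichment of 5 regions is divided by that of the strongest neighbouring locus which all 10 lists hold, within the same list (log y axis), and the lists are on the x axis in the same colours as for the ranks; the dashed line is a ratio of 1 and a cross marks a list with no region. At ebony the ratio is 2.71 and 2.06 in the full-length Grh lists and below 1 in all 6 lists of other factors.

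All 7 genes had a region in each of the 10 lists, as had 81.3% of all protein-coding genes and 90.2% of the 3875 genes whose length lies between those of the shortest and longest member. Presence of a region thus does not tell these genes from most others. The 7 windows held 84 loci, of which 18 were in all 10 lists. Over the genome 17045 of 82971 loci were, a share near that at the 7 genes. Of the 84, 27 were in 2 to 9 lists and 28 in the long Twi list alone. For those counts no share over all loci was taken. The members' median number of regions was 4 in the Grh list and 5 in the Grh titration list, against medians of 7 and 6 over genes of similar length. Of the 18 loci in all lists, 8 lay nearest to an end of the member itself and 10 nearest to an end of another gene, among them 1 that lies inside Pu.

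Loci found in lists of Grh or its domain and in no other list numbered 8, at 5 of the 7 genes (Ddc, Pu, ebony, black and Cad96Ca). The share of such loci over the whole genome was not taken. By a looser rule, a region in any Grh list that overlaps no region of the 6 other lists, the same 5 genes were called. Of all genes 56.4% were called by it, so this count of genes is near the background. That rule also counts regions inside loci that other lists hold. Each of the 8 loci was in 1 list only. The Grh titration list held 1 at Ddc (fold enrichment 1.95), 1 at Pu (2.19) and 2 at ebony (5.55 and 2.39). The Grh DBD list held 2 at ebony (1.98 and 1.74), and the Grh list 1 at black (1.94) and 1 at Cad96Ca (1.73). The ebony region of 5.55 was the only one of them above 2.39. By the looser rule, 3 genes were called in the Grh titration list (33.3% of all genes) and 2 in the Grh list (35.6%). In the Grh DBD list 1 was called (8.78%), and 0 in the Grh DBD titration list (5.89%).

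The stricter demand, a region in both the Grh and Grh titration lists and in none of the 6 lists of other factors, was met by 0 of the 7 genes and by 10.1% of all genes. For the same demand, Zld-only regions were at 0 of the 7 genes (4.37% of all genes) and Twi-only regions at 0 (2.97%). Without the long Twi list among the others, Ddc met it (16.2% of all genes), through the region across its end. Among regions with a −log10 q of at least 10, Ddc and black met it (3.89% of all genes).

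By the same measure of rank, 0 of the 7 genes were called for Zld or for Twi. Of all genes, 0.653% had a region that ranked higher by as much in both full-length Zld lists, and 0.488% in both Twi lists. For genes of similar length the Grh share was 2.76%. Counting the Grh DBD lists among the others left the same 4 genes called (3.1% of all genes). At a difference of 30 points, Ddc and ebony remained (1.74% of all genes). When ranks were taken among all regions of a list, Ddc and black were called (8.32% of all genes). In that setting the Twi region at ebony outranked 86.9% of its list and that at Cad96Ca 71.3%. The median fold enrichment of all regions was 1.76 in the Twi list, the lowest of the 10 lists, and 2.26 in the Grh list. The strongest region of the window in the Grh titration list was the strongest in none of the 6 other lists for Ddc, ebony and ple, against 6.64% of genes with a region in all lists. For the main Grh list this held for ebony alone (3.42%). For the Grh DBD list it held for Pu (3.25%), where the region across the lower-coordinate end, at 16.4, stood just above the one beyond the other end, at 16.2, and for the Grh DBD titration list for ebony (2.68%).

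**Figure D4:**
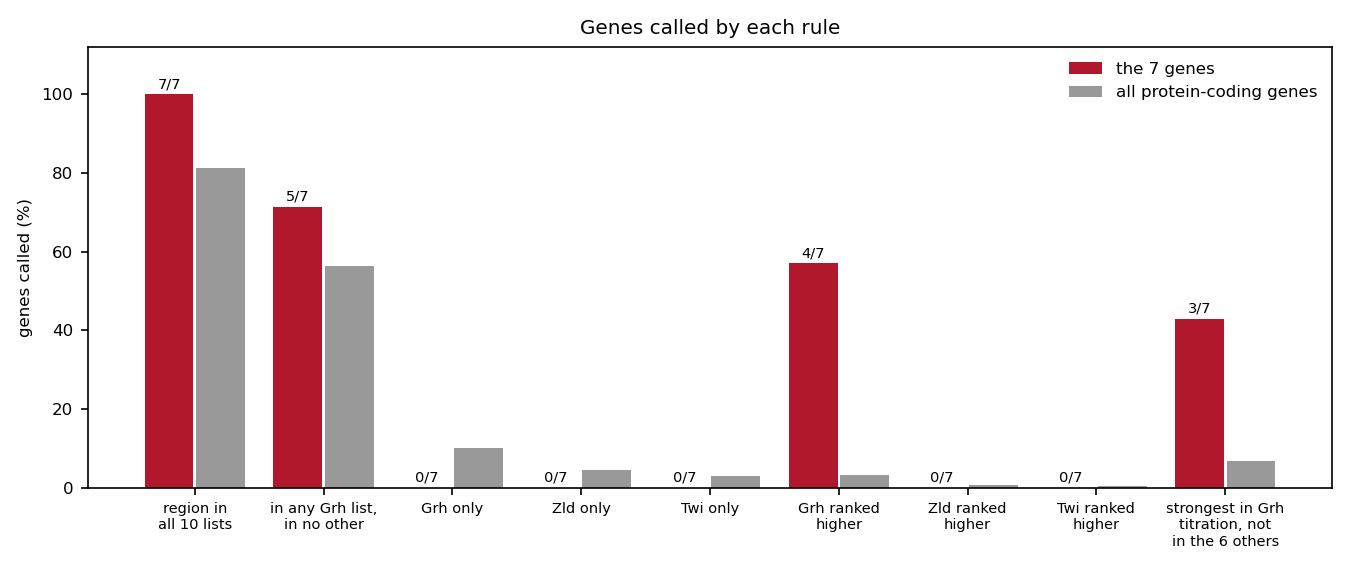
The share of genes called by each rule (y axis, percent) is shown for the 7 genes in red, with the count above the bar, and for all protein-coding genes in grey; for the last rule grey covers genes with a region in all lists. The 7 genes stand at 4 of 7 against 3.31% for regions ranked higher in Grh lists, and at 5 of 7 against 56.4% for regions in any Grh list and no other.

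A smaller share of the other genes of the pathways had a region ranked higher in the Grh lists. The stricter demand, met by 0 of the 7 genes, was met by some of them. Of 27 further tanning genes, 23 had a region in all 10 lists and 1, AANAT1, which encodes an enzyme that acetylates dopamine, had a region ranked higher in the Grh lists, a share near that of all genes (3.31%). In the Zld lists 2 of them (yellow-g and yellow-g2) had one, against 0.653% of all genes, and in the Twi lists 0 had one. The windows of yellow-g and yellow-g2 overlap, so the 2 calls may rest on the same region. The AANAT1 region (2R:24145313-24145618) had a fold enrichment of 15.6 in the Grh titration and 4.15 in the Grh list, 2.04 and 2.08 in the domain lists, and 1.78 in the Twi list, the only list of another factor to hold it. Regions of the stricter kind lay at 4 of the 27 tanning genes, against 10.1% of all genes. They were AANAT1, Pcd, yellow-d and yellow-d2, the last 2 through the same region. Of 20 further wound genes, all had a region in each list. In the Grh lists 3 had one ranked higher (3.31% of all genes): grh itself, the tyrosine kinase gene Src42A and the flotillin gene Flo2. Each of these 3 is longer than the longest member (10713 bp), and no share over genes of their length was taken. By the same measure 1 (Src42A) was called for Zld (0.653% of all genes) and 1 (msn) for Twi (0.488%). The Src42A region (2R:5998991-6000023) reached 20.6 in the Grh titration and 4.21 in the Grh list, against at most 1.88 in a list of another factor. At Flo2 (X:14892236-14892398) the values were 12.6 and 3.45, against at most 2.55. At grh, reads from the introduced gene were not separated from those of the genome. The stricter demand was met by 2 of the 20 wound genes, grh and Flo2, a share near that of all genes (10.1%). At Flo2 it was met through a weak Grh region in a locus that all lists hold.

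Over the 10 lists, the genes whose highest fold enrichments were most like those of the members were wbl for Ddc, Cep89 for ple, CG14411 for Pu, CG12605 for ebony, CG45072 for yellow, Arpc3A for black and PolA1 for Cad96Ca. The mean absolute difference on the log2 scale was between 0.11 (Pu) and 0.21 (ebony).

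Copper differed between the lists, and wild-type cells of the same dose were pooled with the factor's cells in the main lists. Factor, line and copper dose cannot be told apart across lists, and the part of copper in these differences was not tested. The same holds for the sets that some labels name (FL_ATAC, DBD_ATAC, Twi_ATAC and titration). The Zld DBD list shares the dose of the main Grh list, 100 uM. It held the Ddc region at 1.93, against 8.92 in the Grh list, and the ebony region at 2.68, against 8.92. These lists also differ in factor, form of the protein and line, and in the set their S2-WT labels name (FL_ATAC or DBD_ATAC). The contrast is therefore no test of copper dose. Whether the 400 uM libraries of the Grh titration gave rise to the regions at ple and inside ebony that the main Grh list lacked was not tested, since doses are pooled. No library is shared by the Grh and Grh titration lists. The rule that called the regions at Ddc, ebony, black and Cad96Ca required both Grh lists to stand above the others. That both did so is therefore no separate result.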

How the data were processed

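ATAC-seq peak lists were analysed for 10 sets of libraries. The submitters' processing notes name build dm6 and list deepTools 3.5.1, MACS2, Bowtie2, DESeq2 and featureCounts. Settings, and any shift of reads for the transposase, are not given in the sources used. Each deposited peak has the authors' score, its fold enrichment, which is a ratio to local background, and the −log10 of its q. Lists pool libraries, per the labels, and depth per sample is unknown. For the 2 DBD titration lists, whose rows are 200 bp wide without a summit, midpoints were used.

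Overlapping rows of a list were joined to 1 region with its strongest summit, and regions were shared if they overlapped by at least 1 bp. Regions of all lists that overlap in a chain form a locus. Genes were matched in the RefSeq table of Release 6, used without strand or exons, so promoters were not told from 3′ ends. No genome sequence was used here and the planned motif counts were not run. The genes named are the 7 members, those most like them in fold enrichment, and genes of the 2 further lists with a called region. AANAT1 was matched by synonym. The members and lists were chosen with earlier results of these data known. The overlap, window and rank functions were tested on simulated data. Python 3.11.15, numpy 2.4.6, pandas 2.3.3 and matplotlib 3.10.9 were used.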

Additional observations from a re-analysis of the deposited data

How the results depend on the processing

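No paired analysis was possible because the lists pool their libraries and carry no value per sample; for the same reason no replicate could be left out. With a window of 1 kb, 4 of the 7 genes had a region in all 10 lists (64.9% of all genes). In that window 3 had a region in any Grh list and no other (31.4%). The count of genes with a region in both full-length Grh lists and no list of another factor was 0. It became 2 with the Grh list alone (35.6% of all genes), 3 with the Grh titration list alone (33.3%) and 1 without the Twi list (16.2%). It was 2 at a −log10 q of at least 10 (3.89%) and 1 with every list limited to its strongest 25397 regions (7.13%). The members held 313 regions over the 10 lists, and 199 at a −log10 q of at least 10. The 4 genes with a region ranked higher in Grh lists became 2 at a difference of 30 points (1.74% of all genes). With ranks among all regions of a list they became 2 (8.32%). Those alternatives to the rank measure were chosen after seeing the data. The other 23 alternatives stayed within 1.5 times of the value reported.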
